A study of Canis lupus familiaris with 6 samples.

Results

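The DLK1-DIO3 region is an imprinted domain of dog chromosome 8 that holds a long run of miRNA genes. Of its 35 miRNAs on the array used here, 3 were detected in any sample: cfa-miR-494, cfa-miR-370 and cfa-miR-134, where cfa stands for the dog. They are 3 of 289 canine miRNAs measured, and carry 8 of 656 probes and 120 of 11560 spots. The members were chosen by name and by the detection flag that the scanner software sets, so their detection is a description and was not tested.

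CMT-U27, CMT-U309 and P114 are cell lines from canine mammary cancer, all grown in RPMI-1640 medium with serum, and flow cytometry with an antibody to Sca1 (stem cell antigen 1) split each into a Sca1+ and a Sca1- sample. The labels take Sca1+ cells as cancer stem cells and Sca1- cells as controls, and n = 3 lines per fraction. The description of both P114 samples speaks of macrophages in the culture and that of the other 4 of mono-culture, while titles and sources name no macrophages. The labels speak of biological replicates without saying which cultures were separate, so a p-value here reflects no more than how much the 6 samples vary, which may be technical. In sorted cells measured in bulk, fewer cells with a miRNA and less miRNA per cell cannot be told apart.

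In an imprinted domain a gene is read from 1 parental copy and silenced on the other. In DLK1-DIO3 the protein-coding genes DLK1, RTL1 and DIO3 are read from the paternal copy, and the non-coding RNAs, miRNAs included, from the maternal copy. The miRNAs are processed from long transcripts and are best known from embryo, placenta, brain and muscle. miR-134 is known from neurons, where it represses Limk1, a kinase of the actin cytoskeleton. miR-370 is known from liver lipid metabolism.

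The array reads each miRNA with short DNA probes, which are shown because the members' signal rests on them. Lower case marks the bases that all probes of a member share, and capitals mark the bases by which longer probes extend the shortest, 5′ to 3′, as the scanner files list them:
miR-494, probe of 14 bases: gaggtttcccgtgt
miR-494, probe of 15 bases: gaggtttcccgtgtA
miR-370, probe of 14 bases: accaggttccaccc
miR-370, probe of 15 bases: accaggttccacccC
miR-134, probe of 10 bases: cccctctggt
miR-134, probe of 11 bases: cccctctggtC
miR-134, probe of 12 bases: cccctctggtCA
miR-134, probe of 13 bases: cccctctggtCAA

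In the canFam2 build of the file headers, the longest probes map to chr8:72175574-72175587 for miR-370, chr8:72304173-72304186 for miR-494 and chr8:72326246-72326257 for miR-134. The files give no strand. All 35 miRNAs of the cluster mapped to chromosome 8, over 200.0 kb, and 1 of them (miR-376a) to several places. In RefSeq's dog gene table (assembly UU_Cfam_GSD_1.0), which names 34 of the 35, MIR370 lies inside a long non-coding RNA gene and between snoRNA genes, MIR494 lies between MIR329A and MIR543, and MIR134 between MIR382 and MIR485. MIR494 and MIR134 overlap no other gene of that table.

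The nearest miRNAs of the cluster, none of them detected, are read by these longest probes, shown for comparison with the members:
miR-136, before miR-370: tccatcatcaaaacaaatggagt
miR-379, after miR-370: cctacgttccatagtc
miR-329a, before miR-494: aaacagaaacccagaaaa
miR-543, after miR-494: aagaagtgcaccgcgaatg
miR-382, before miR-134: aaagtgttgtccgtgaa
miR-485, after miR-134: cgaattcatcacggc

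The 8 member probes were short and rich in G and C, with a median of 13.5 bases (10 to 15) and 65.5% G or C (53.3% to 72.7%). The 74 probes of the 32 undetected cluster miRNAs had medians of 18.0 bases and 45.8%, and all 656 probes had medians of 17.0 bases and 47.1%. Within the cluster, GC-rich probes of 13 to 15 bases were not particular to the detected members. Probes under 13 bases belonged to miR-134 alone among the cluster miRNAs. 5 undetected cluster miRNAs (miR-381, miR-409, miR-433, miR-485 and miR-665) had no probe longer than 15 bases and had a probe of at least 53.3% G or C. The part of probe length and composition in detection was not tested.

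The 6 arrays differed widely in signal. The bright ones, with over 50 detected miRNAs each (111 on B1, 91 on B2, 89 on B3), had summed signals of 69280 to 70790 intensity units. The dim ones, D1, D2 and D3, detected 39, 22 and 9 and had summed signals of 3228, 1277 and 319.5. All lay on 1 slide with 1 scan date, and no spot of a member was saturated. The scanner files and the deposited value table assign the arrays to samples differently: 4 of 6 table columns equal the scanner file of another sample, and which assignment holds is unknown. By scanner file, CMT-U27 gave D1 as Sca1+ with D2 as Sca1-, CMT-U309 gave B1 with B2, and P114 gave D3 with B3. By value table, CMT-U27 gave D1 with B2, CMT-U309 gave D2 with D3, and P114 gave B1 with B3. Values are therefore given by array first. Of 5 miRNAs of the epithelial miR-200 family on the array, 3 were detected on B1, 1 each on B2 and D2, and 0 on B3, D1 and D3.

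miR-494 was detected on every array. The total gene signal is the software's sum over the detected probes of a miRNA, in intensity units. For miR-494, array B1 gave 2723 ± 196 (the error is the one the files give for that array), B2 gave 764 ± 57.5 and B3 gave 1423 ± 104. D1 gave 406 ± 30.1, D2 gave 513 ± 37.0 and D3 gave 57.7 ± 6.11. B1 was highest and D3 lowest, and all 3 bright arrays were above all 3 dim ones.

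The signal of miR-494 fell less from bright to dim arrays than that of most miRNAs seen on every array. Of the 9 miRNAs detected on all 6 arrays, it had the fourth smallest ratio of highest to lowest signal, 47.2, after miR-223 (1.36), miR-149 (3.20) and miR-365 (23.5). The largest was that of miR-21, a miRNA often high in cancer, at 533. Mean bright over mean dim signal was 5.03 for miR-494 and 100 for miR-21. As a share of the summed signal, miR-494 made up 3.93% on B1, 1.08% on B2 and 2.03% on B3, but 12.6% on D1, 40.2% on D2 and 18.1% on D3. Its share was higher on every dim array than on every bright one, the reverse of its raw signal. A highest share on a dim array was not particular to miR-494. On D3 it was reached by miR-223 (19.2%), miR-149 (10.5%), let-7b (8.99%), let-7a (8.93%) and miR-365 (6.97%). By contrast, let-7f, miR-23a and miR-21 had their highest share on a bright array.

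miR-370 was detected on 4 arrays. B1 gave a total gene signal of 87.7 ± 8.10, B2 one of 21.6 ± 6.09, B3 one of 52.5 ± 7.13 and D2 one of 12.5 ± 3.72, while D1 and D3 gave no detected signal. D2 detected fewer miRNAs than D1 (22 against 39), yet miR-370 was seen on D2 and not on D1. A total of 3 miRNAs shared this pattern of arrays, the others being miR-188 and miR-30b.

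miR-134 was detected on 2 arrays, at 32.5 ± 3.78 on B1 and 7.82 ± 2.28 on B3, and not on B2 or any dim array. Its value on B3 was the lowest signal of any miRNA detected on that array. The other miRNAs detected on B1 and B3 alone were miR-152, miR-33, miR-338 and miR-423a.

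**Figure D1:**
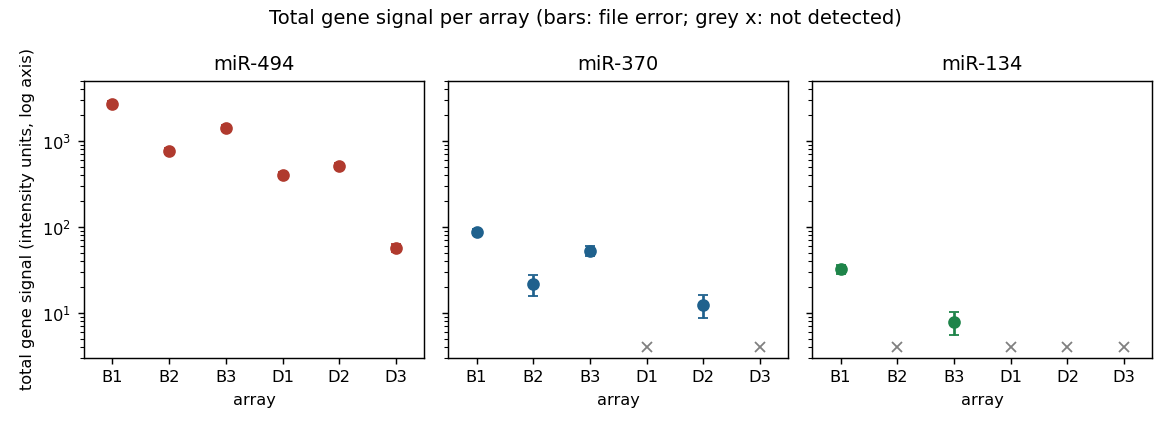
Total gene signal (intensity units, log axis) of miR-494, miR-370 and miR-134 on each of the 6 arrays. Points are single arrays, bars the error that the files give, and grey crosses, drawn at an arbitrary height, mark arrays on which the miRNA was not detected. miR-494 runs from 57.7 on D3 to 2723 on B1, and B1 is highest for each member.

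The detection call follows a fixed limit. In all 361 detected of 1734 values (289 miRNAs on 6 arrays), at least 1 probe had a signal more than 3 times its error, in none of the 1373 undetected values did a probe do so, and the total gene signal equalled the sum over the probes past that limit within a relative tolerance of 0.001. Just inside it, miR-370 had a best ratio of signal to error of 3.36 on D2 and 3.55 on B2, and miR-134 one of 3.42 on B3. miR-494 stood well inside, at 7.62 on D3 and 9.91 to 9.99 on the other arrays. Just outside, miR-134 reached 1.80 on B2, and the probe of 14 bases of miR-370 reached 2.88 on B2 and 2.84 on D2.

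The number of probes that passed therefore enters the total gene signal. For miR-370, both probes passed on B1 and B3 and 1 on B2 and D2. For miR-134, 3 of 4 probes passed on B1 and 1 on B3. B1 over B2 was 4.06 for miR-370 by total gene signal and 2.18 by its probe of 15 bases alone. B1 over B3 was 4.15 for miR-134 by total gene signal and 2.23 by its probe of 11 bases. For miR-494, where both probes passed everywhere, B1 over B2 was 3.56 in total, 3.13 by the probe of 14 bases and 4.42 by that of 15.

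Single spots bear these levels out to different degrees. On B1, the 20 unflagged spots of the shorter miR-494 probe had a mean processed signal (background-subtracted spot intensity) of 1173 ± 46.3 (SD over spots), and on D3 19 spots had 27.7 ± 2.29. All unflagged spots of miR-494 were well above background on every array. The spot CV of its 2 probes had a median of 3.97% (1.90% to 13.2% over 12 probe and array values). Spots of 1 probe are technical repeats, so these SDs say nothing of the spread between samples.

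The longer miR-370 probe averaged 34.8 ± 2.19 on B1 (18 of 18 unflagged spots well above background), 16.1 ± 2.26 on B2 (0 of 18), 20.0 ± 3.07 on B3 (19 of 19) and 9.41 ± 2.04 on D2 (1 of 18). On D1 and D3 it averaged -0.247 ± 2.58 and -0.107 ± 2.34, around 0. Every D2 spot of this probe was above every D3 spot, with a range of 6.61 to 14.4 against -3.95 to 4.75, although nearly all D2 spots missed the flag for well above background.

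The signal of miR-134 rested mainly on the probe of 11 bases. It averaged 25.7 ± 3.54 on B1 (10 of 10 spots well above background), 11.4 ± 1.90 on B3 (0 of 9) and 7.76 ± 2.09 on B2 (0 of 10), and -1.85 ± 2.30, -1.71 ± 1.47 and -4.14 ± 0.704 on D1, D2 and D3. On B1, the probes of 12 and 13 bases averaged 10.7 ± 1.70 and 11.5 ± 2.87, and that of 10 bases 4.07 ± 2.06. The probe of 10 bases passed the detection limit on no array.

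**Figure D2:**
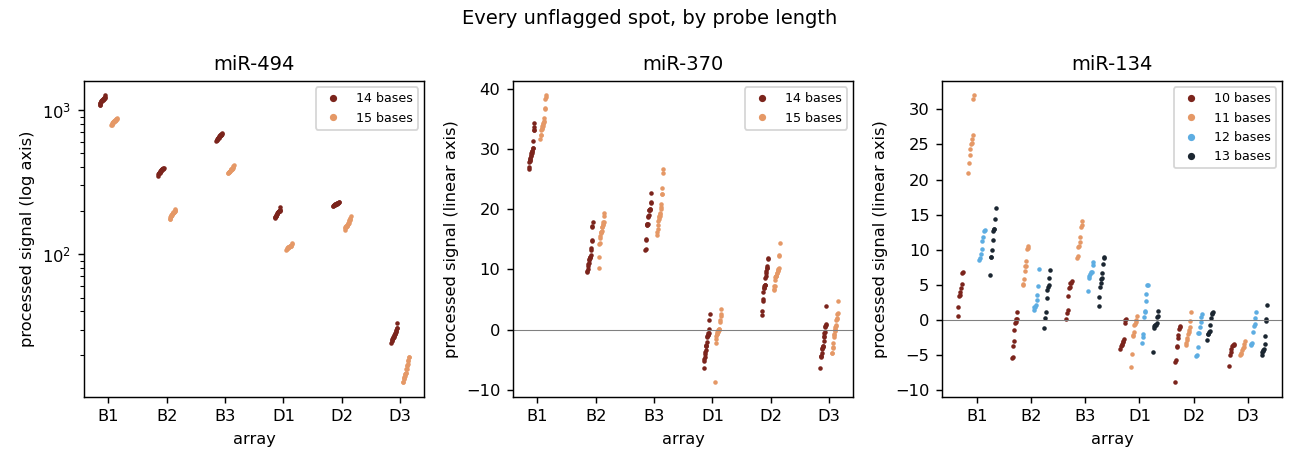
Processed signal of every unflagged spot (up to 20 per probe for miR-494 and miR-370, up to 10 for miR-134) by array, on a log axis for miR-494 and a linear axis for the others; colours mark probe length in bases. The spots of miR-494 fall in narrow bands, those of miR-370 lie around 0 on D1 and D3, and those of miR-134 lie around or below 0 on all dim arrays.

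Among the bright arrays the members ran in the same order. All 8 probes of the 3 miRNAs had their highest mean signal on B1, then B3, then B2, the probes under the detection limit included. For the probe of 10 bases of miR-134, B1 and B3 differed by less than the SD over spots (4.07 ± 2.06 against 3.495 ± 2.12). Of the 78 miRNAs detected on all 3 bright arrays, 19 had this order by total gene signal, miR-494 and miR-370 among them. That count uses another measure than the probe means and leaves out miR-134, which was undetected on B2. Probes of 1 miRNA share their target, so the 8 probes are 3 miRNAs and not 8 separate cases.

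miR-494 was the miRNA most like miR-370 by the measure used. Likeness was the SD, over the arrays on which miR-370 was detected (B1, B2, B3 and D2), of the log2 ratio of the other miRNA's total gene signal to that of miR-370. Of 18 miRNAs detected on all 4, miR-494 had the smallest SD, 0.256, against a median of 1.97. The next were miR-188 at 0.914 and miR-197 at 1.14, and miR-21 had the largest, 3.21. With 1 probe per miRNA in place of the sum, miR-494 was again lowest at 0.284, then miR-188 at 0.476 and miR-197 at 0.693. These are 4 arrays that share a slide, and the error of miR-370 was 28.2% of its signal on B2 and 29.8% on D2. For miR-494 only miRNAs detected on all 6 arrays were taken, so miR-370 was no candidate. The most like it were miR-365 (SD 1.39), miR-149 (1.68) and miR-223 (1.83), of 8 candidates.

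**Figure D3:**
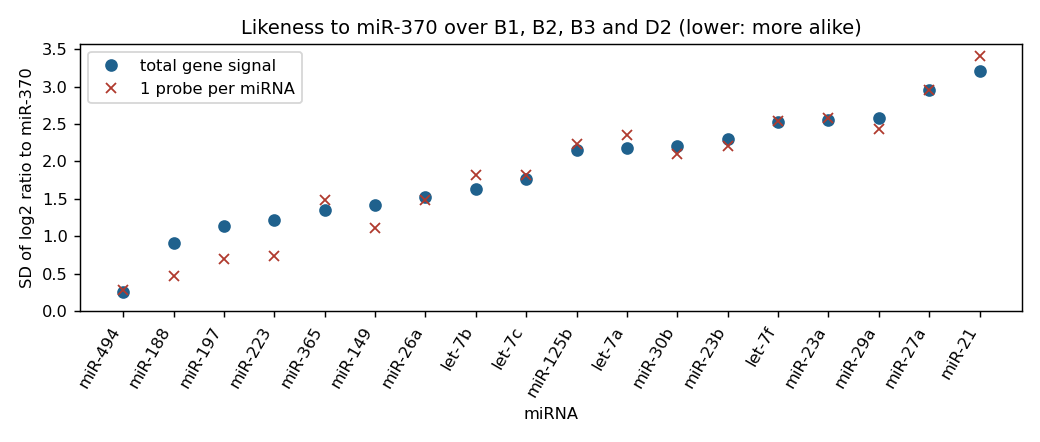
SD of the log2 ratio of each of 18 miRNAs to miR-370 over arrays B1, B2, B3 and D2, by total gene signal (circles) and by 1 probe per miRNA (crosses); lower values mean a more similar profile. miR-494 lies lowest by both, at 0.256 and 0.284.

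The 32 other miRNAs of the cluster were under the detection limit on every array. Their highest ratio of signal to error on any array had a median of 0.499. It was at most 1 for 22 of them, and 12 never had a mean processed signal above 0. Those with the highest processed signal were miR-299 (13.1 on B2, at 2.94 times its error the nearest to the limit), miR-409 (8.21 on B2) and miR-758 (7.16 on B2). A ratio above 2 was reached by miR-299 on B2, by miR-409 on D1 (2.18) and by miR-487b on B1 (2.01). On B1, the median processed signal was -1.23 over the 32 miRNAs and -0.772 over the 133 other miRNAs detected nowhere, and on B3 it was -0.691 and -0.516. On the other 4 arrays the cluster median was the higher, at 1.39 against -0.413 on B2, -0.0398 against -0.617 on D1, -0.537 against -1.41 on D2 and -0.119 against -0.653 on D3. Of the 254 array miRNAs outside the cluster, 47.6% were detected on at least 1 array, against 8.57% of the cluster.

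The detected members sat beside undetected neighbours. miR-382, which lies 0.3 kb from miR-134, had mean processed signals of -2.82 to -0.961 over the 6 arrays, and miR-485, at 0.7 kb, -3.52 to -1.47. miR-543, 2.0 kb from miR-494, ran from -0.859 to 1.18, and miR-329a, at 2.6 kb, from 0.177 to 2.86. miR-370 stands apart on the map, 26.2 kb from miR-136 (2.53 to 4.40) and 121.0 kb from miR-379 (-3.36 to -0.875). That no neighbour was detected follows from how the members were chosen. The highest ratio of signal to error of any of these neighbours was 1.28, for miR-136 on B1.

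**Figure D4:**
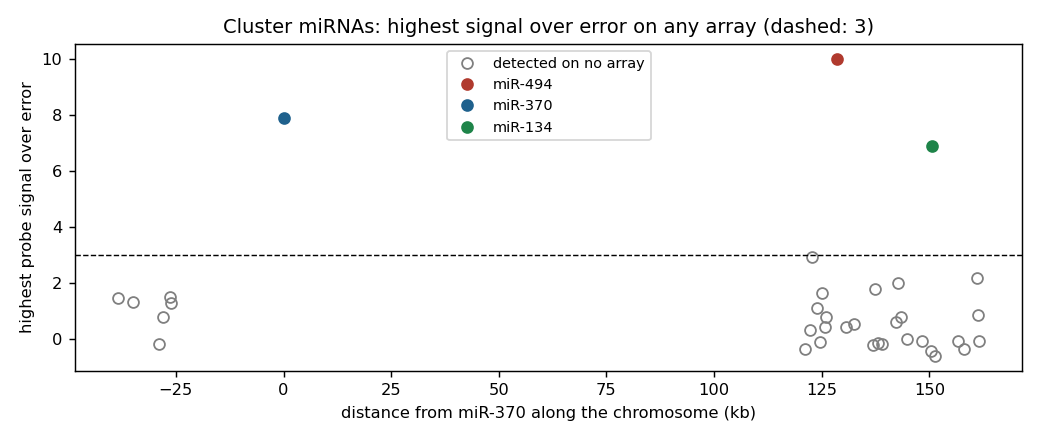
Highest ratio of probe signal to its error on any array for the 35 cluster miRNAs, by distance from miR-370 along chromosome 8 in kb; the dashed line marks the detection limit of 3. Filled points are miR-370 (7.90), miR-494 (9.99) and miR-134 (6.87), and open points the 32 miRNAs detected on no array, of which miR-299 comes nearest at 2.94.

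Outside the cluster, the probes of 5 other miRNAs map to chromosome 8 alone. miR-342 (184), miR-345 (18.4) and miR-203 (422), which lie 674.2 kb, 506.4 kb and 2482.5 kb from the cluster, were detected on B1 alone, and the heart miRNAs miR-208a and miR-208b on no array. B1 was also the array on which each member was highest and most miRNAs were detected. Detection on 1 array does not show whether a miRNA followed the members.

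Sca1+ cells were compared with Sca1- cells of the same line by scanner file, the comparison that the series describes. No member passed. limma, run on log2 signals scaled by a percentile of each array, called 0 of 80 tested miRNAs (0%, with 0 at an unadjusted p under 0.05). By this scaling miR-494 had log2 values of 0.19, -0.61 and 0.26 in Sca1+ cells of CMT-U27, CMT-U309 and P114, and of 2.28, -1.55 and -0.92 in Sca1- cells. The Sca1+ values lay within the range of the Sca1- values. The mean difference was 0.01 (SE 1.76, 95% interval -4.34 to 4.36, adjusted p = 0.995 with limma, n = 3 pairs), with Sca1+ higher in 2 of 3 lines. The median difference of all 80 was -0.81. Medians of fits with dim arrays include values near background, since D1, D2 and D3 detected only 39, 22 and 9 miRNAs. The interval is wide in both directions, so the test does not show that the fractions are alike.

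The within-line values of miR-494 turned with the scaling. By scanner file, Sca1+ minus Sca1- was -2.08 in CMT-U27, 0.94 in CMT-U309 and 1.18 in P114. Without scaling these were -0.21, 1.64 and -4.56, so P114 changed sign. The P114 Sca1+ array by this assignment is D3, which had the lowest summed signal, and its part in the change was not tested. The 10 probes that set the main scale include both probes of miR-494, and without them the differences were -1.70, 1.42 and 2.13. By scanner file CMT-U27 was below 0 and CMT-U309 above 0 under each of the 6 settings of scaling and background.

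By the value table, miR-494 was higher in Sca1+ cells of each line, by 1.74 in CMT-U27 (0.19 against -1.55), 2.01 in CMT-U309 (2.28 against 0.26) and 0.31 in P114 (-0.61 against -0.92), without passing. The ranges of the fractions overlapped. The mean difference was 1.35 (SE 0.88, 95% interval -0.97 to 3.68, adjusted p = 0.792 with limma, n = 3 pairs), beside a median of -0.56 for all tested miRNAs, of which 0% were called (3 at an unadjusted p under 0.05). CMT-U27 turned to -0.97 without scaling, and P114 to -0.31 with scaling over all probes. By this reading all Sca1+ samples lay in 1 row of the slide and all Sca1- samples in the other, so fraction and slide row cannot be told apart, nor line and slide column.

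**Figure D5:**
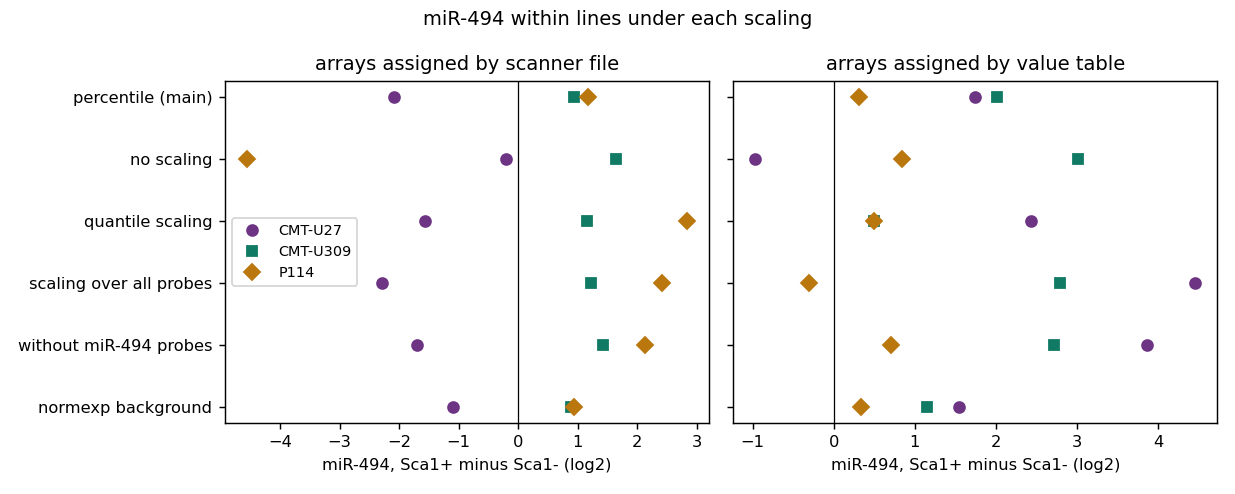
Log2 difference of miR-494 between Sca1+ and Sca1- samples of each line under 6 settings of scaling and background, with arrays assigned by scanner file (left) and by value table (right). Each symbol is 1 pair of arrays. By scanner file P114 moves from 1.18 with the main scaling to -4.56 without scaling, and by value table most points lie above 0.

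For miR-370, detection by fraction depended on the assignment. By scanner file it was detected in 1 of 3 Sca1+ samples (CMT-U309) and in 3 of 3 Sca1- samples, and by value table in 2 of 3 of each. The fitted difference by scanner file was -5.08 (SE 2.69, adjusted p = 0.995 with limma, n = 3 pairs). By value table it was -0.13 (SE 3.08, adjusted p = 0.969 by limma). Both rest on floor values on D1 and D3, where miR-370 was undetected, so neither their size nor their place among the miRNAs is exact. By scanner file the difference was -1.68 without either CMT-U27 array and -7.83 without either CMT-U309 array. In the 1 pair with both samples detected by scanner file (CMT-U309), Sca1+ was above Sca1-, at 87.7 against 21.6 in total gene signal. In the 1 such pair by value table (P114) it was also above, at 87.7 against 52.5. B1 is the Sca1+ array of both pairs. The total gene signal is unscaled, and for miR-370 it sums 2 probes on B1 against 1 on B2. On the main scale the log2 differences were 0.43 in CMT-U309 by scanner file and 0.28 in P114 by value table.

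miR-134 was seen in 1 Sca1+ and 1 Sca1- sample in both assignments and was not tested over the 6 arrays. By value table the 2 arrays are the Sca1+ and Sca1- samples of P114, and miR-134 passed the detection limit in no other sample. On B2, which is CMT-U27 Sca1- by this reading, its probe of 11 bases averaged 7.76 ± 2.09, against 11.4 ± 1.90 on B3. By scanner file the 2 arrays are CMT-U309 Sca1+ and P114 Sca1-. A fit by scanner file without the detection filter covered all 289 miRNAs. There Sca1+ minus Sca1- of miR-134 was 0.15 (SE 2.96, adjusted p = 0.997 with limma, n = 3 pairs). Most values of miR-134 lay under the detection limit, so the size of this difference is not exact.

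The 4 arrays whose fraction is the same in both assignments give Sca1+ as B1 and D1 and Sca1- as B2 and B3. There miR-494 was higher in Sca1+ by 1.82 (SE 0.78, 95% interval -0.62 to 4.24, adjusted p = 0.567 with limma, n = 2 per fraction), in a fit that called 0% of 91 miRNAs (7 at an unadjusted p under 0.05) and had a median difference of -0.18. The Sca1+ arrays here are 1 bright and 1 dim, while both Sca1- arrays are bright, and the share of miR-494 in the summed signal was higher on each dim array than on each bright one. The part of array brightness in the difference was not tested. For miR-370 the same fit gave -3.11 (SE 3.15, adjusted p = 0.692) and for miR-134 0.22 (SE 0.97, adjusted p = 0.925), both with limma. miR-370 was undetected on D1, and miR-134 on B2 and D1, so these values are not exact.

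On the bright arrays alone, B1 (Sca1+) stood above B2 and B3 (Sca1-) for all 3 members. The differences were 0.92 for miR-494, 0.65 for miR-370 and 1.15 for miR-134, with n = 1 against 2. miR-134 was undetected on B2, so its value is not exact. The fit called 4 of 90 miRNAs (4.44%), all lower on B1 and no member among them, and its median difference was 0.18. With 1 residual degree of freedom, its spread comes from B2 against B3 alone and assumes that the lone Sca1+ array varies alike, so it compares these arrays and gives no spread within Sca1+.

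The lines were compared with fraction as a term. By scanner file 0 of 80 miRNAs passed (0%, with 4 at an unadjusted p under 0.05). miR-494 had mean scaled log2 levels of 1.23 ± 1.47 in CMT-U27, -0.33 ± 0.84 in P114 and -1.08 ± 0.66 in CMT-U309 (SD, n = 2 each). P114 and CMT-U309 differed by less than the SD within P114, and the adjusted p among lines was 0.901 with limma. By value table the order was CMT-U309 (1.27 ± 1.42), CMT-U27 (-0.68 ± 1.23) and P114 (-0.76 ± 0.22), where CMT-U27 and P114 were within the SD of CMT-U27. The adjusted p was 0.342 with limma, in a fit that called 17.5% of miRNAs and neither miR-494 nor miR-370. The line with the highest scaled miR-494 was in each reading the one with 2 dim arrays.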

How the data were processed

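The 6 arrays were deposited as Agilent Feature Extraction files (version 10.10.1.1 per the file headers, 10.7.3.1 per the submitters' processing notes), 1 green channel each, although the labels name Cy5. The deposited spot intensity is background-subtracted and spatially detrended, not scaled between arrays, per the file headers. The deposited value table holds the same total gene signal intensity.

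Members, lists and tests were chosen with earlier results of these data known. The rule named the 3 members, their nearest cluster neighbours, the 3 brightest undetected cluster miRNAs and the 3 miRNAs most like each member. Non-positive intensities took the lowest positive value of their array. Log2 values were scaled by the 75th percentile over 10 probes with over 50% of their spots well above background on all 6 arrays, a limit chosen after a first run with all spots. Outlier spots were left out, and a miRNA took its brightest probe. Testing took the 80 miRNAs seen on 3 or more arrays, with limma 3.58.1 in R 4.3.3, terms for line and fraction and Benjamini-Hochberg adjustment at 0.05. The line pairs samples because both fractions came from it. Subsets of 3 or 4 arrays were rescaled, with miRNAs detected on at least 2. Bright arrays were defined by over 50 detected miRNAs, a limit chosen after the data were seen. Alternatives changed the array assignment, signal, background, scaling, probe summary, filter, line term and samples. The number of arrays limits the precision.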

Additional observations from a re-analysis of the deposited data

Results flagged for a closer look

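The difference of miR-494 between Sca1+ and Sca1- samples had opposite signs between lines by scanner file, at -2.08 in CMT-U27 and at 0.94 in CMT-U309 and 1.18 in P114 (log2). The difference between lines was not tested, since each line has 1 pair of arrays. By value table all 3 lines had the same sign with the main scaling. That did not hold without scaling (CMT-U27 at -0.97) or with scaling over all probes (P114 at -0.31).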

How the results depend on the processing

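The Sca1 comparison called 0 of the tested miRNAs under each alternative with all 6 arrays, each sample left out in turn, and the 4 arrays of undisputed fraction. The fit on the 3 bright arrays was the exception, with 1 Sca1+ array, 1 residual degree of freedom and no spread within Sca1+. miR-494 passed in no alternative. Its difference of 0.01 became -1.05 without scaling and lay between -0.57 and 1.06 with each sample left out in turn (without a CMT-U309 or a P114 array it was below 0). With all spots of a scaling probe required to be well above background, a setting chosen after the data were examined, it was 1.29. Without the line as a block (no paired term) it stayed at 0.01, with an adjusted p of 0.994 in limma. For miR-370, -5.08 became 0.98 with normexp background and 0.65 on the bright arrays, was -0.13 by value table, and lay between -7.83 (without a CMT-U309 array) and -1.68 (without a CMT-U27 array) with each sample left out. Among lines, 0 calls became 14 by value table and 1 with the total gene signal. The cause of these shifts was not tested. Signals near background limit miR-370 and miR-134.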
